A study of Arabidopsis thaliana with 12 samples.

Results

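The XTH genes of Arabidopsis thaliana encode xyloglucan endotransglucosylase/hydrolases, and all 33 (XTH1 to XTH33) were taken by locus code from a table of 32833 genes measured in leaves. The leaves came from wild-type plants of the Col-0 accession, 3.5 to 4 weeks old, raised in soil at 60% relative humidity and 22 °C with a 12 h day. For 1 h the plants stood in a chamber at 40 to 45% (low), 55 to 60% (moderate) or 95% (high) relative humidity, with temperature and day length shared by all chambers. Each condition has 4 libraries, the labels call them biological replicates, and they do not say whether a replicate was 1 plant or a pool. P-values therefore measure only the spread between these libraries. A chamber cannot be told apart from its humidity.

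Xyloglucan is a branched glucan that coats cellulose microfibrils in the primary wall of leaf cells. XTH enzymes cut its backbone and join the cut end to another xyloglucan chain (endotransglucosylase activity) or to water (hydrolase activity), and they are known for acting on walls that grow, are built or are placed under mechanical load. Most members tested as proteins join chains, whereas XTH31 and XTH32 lie in the branch of the family that holds the xyloglucan hydrolases of other plants. XTH22 is also known as TCH4, one of the TCH genes first found because their transcripts accumulate when a plant is touched.

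Values are TPM, a transcript abundance scaled by transcript length and to a fixed library total, so levels can be set side by side between genes as well as between libraries. The libraries sum to between 998920 and 999399 TPM, their sequencing depth is unknown, and between 20691 and 20967 genes were above 0 in each. Genes with at least 1 TPM in at least 4 libraries were tested (17368 genes) with limma on log2(TPM + 1), with Benjamini-Hochberg adjustment over those genes and a threshold of 0.05. Fold changes on this scale understate the change of genes of low TPM. The median of all tested genes had a log2 fold change of -0.22 at high against moderate humidity, which became -0.02 after median-of-ratios scaling. Over all genes 1981 rose and 5938 fell in this comparison, and 3211 rose and 2600 fell after that scaling. Mesophyll markers stood at a summed 45928 to 56318 TPM at low, 46707 to 49406 TPM at moderate and 47198 to 52859 TPM at high humidity. None of these 4 genes passed the test at high against moderate humidity, and after median-of-ratios scaling LHCB1.1 alone rose (0.49, limma adjusted p = 0.020). Of 4 root markers CASP1 was at 0 and PYK10 and WER stayed at or under 0.51 TPM. SCR alone reached 1 TPM and made up nearly all of the sum of the 4 root markers. That sum was 26.3 to 31.2 TPM at low, 31.8 to 44.6 TPM at moderate and 19.2 to 32.5 TPM at high humidity. On its own SCR does not show root tissue in these libraries. SCR fell at high against moderate humidity (-0.57, SE 0.15) and did not pass the test after median-of-ratios scaling (-0.34). Flower markers summed to no more than 3.76 TPM in any library, and of these AG fell at high against moderate humidity (-1.02, SE 0.20). The 4 markers of vascular tissue summed to 175 to 201 TPM at low, 159 to 179 TPM at moderate and 192 to 219 TPM at high humidity. Most of that sum was SUC2, a phloem gene, which rose at high against moderate humidity (0.39, SE 0.09). The xylem gene XCP1 fell (-0.46, SE 0.17), and IRX3 and APL did not pass the test (-0.26 and 0.21). After median-of-ratios scaling SUC2 (0.63) and APL (0.44, limma adjusted p = 0.0089) rose, and XCP1 and IRX3 did not pass (-0.24 and -0.09). The 4 markers of epidermis and guard cells summed to 41.6 to 66.6 TPM at low, 63.5 to 76.2 TPM at moderate and 46.4 to 58.7 TPM at high humidity. Of these FAMA, a guard cell gene, fell at high against moderate humidity (-0.99, SE 0.15), while MYB60, ATML1 and PDF1 did not pass the test (-0.40, -0.08 and 0.06). The part of these tissues in the results was not tested. In whole leaves, fewer cells of a type and less RNA per cell cannot be told apart.

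Of the 33 members, 22 were tested. XTH1, XTH2, XTH3, XTH13, XTH14, XTH20 and XTH21 were listed at 0 in all 12 libraries. XTH11, XTH12, XTH26 and XTH29 were above 0 in at least 1 library and never above 0.76 TPM. Among these 11 untested genes, XTH12, XTH13, XTH14, XTH20, XTH21 and XTH26 are known mainly from roots. XTH15, XTH18, XTH23, XTH25 and XTH33 passed the filter only through the high humidity libraries. The filter thus favoured a rise in these genes, and their calls are not independent of it. Counts over the tested members are given as a description.

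High against moderate humidity asks what an hour in nearly saturated air did to these transcripts. At high humidity 17 of the 33 XTH genes rose, 2 fell, 3 did not pass the test and 11 were not tested. Of all tested genes, 11.4% rose and 34.2% fell in this comparison, 45.6% in either direction. All 17 had every high library above every moderate one and the other 2 every high library below, as 10.9% and 34.9% of all tested genes did. Of the 17 XTH genes that passed the filter outside the high libraries as well, 12 rose and 2 fell. The family's 17 rises and 2 falls were the same in number after median-of-ratios scaling, under which 3211 of all 17368 tested genes rose and 2600 fell. Leaving out XTH33, which was at 0 at moderate humidity, the rises ran between 0.78 and 6.92 on the log2 scale, and XTH7 alone was under 1.

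**Figure D1:**
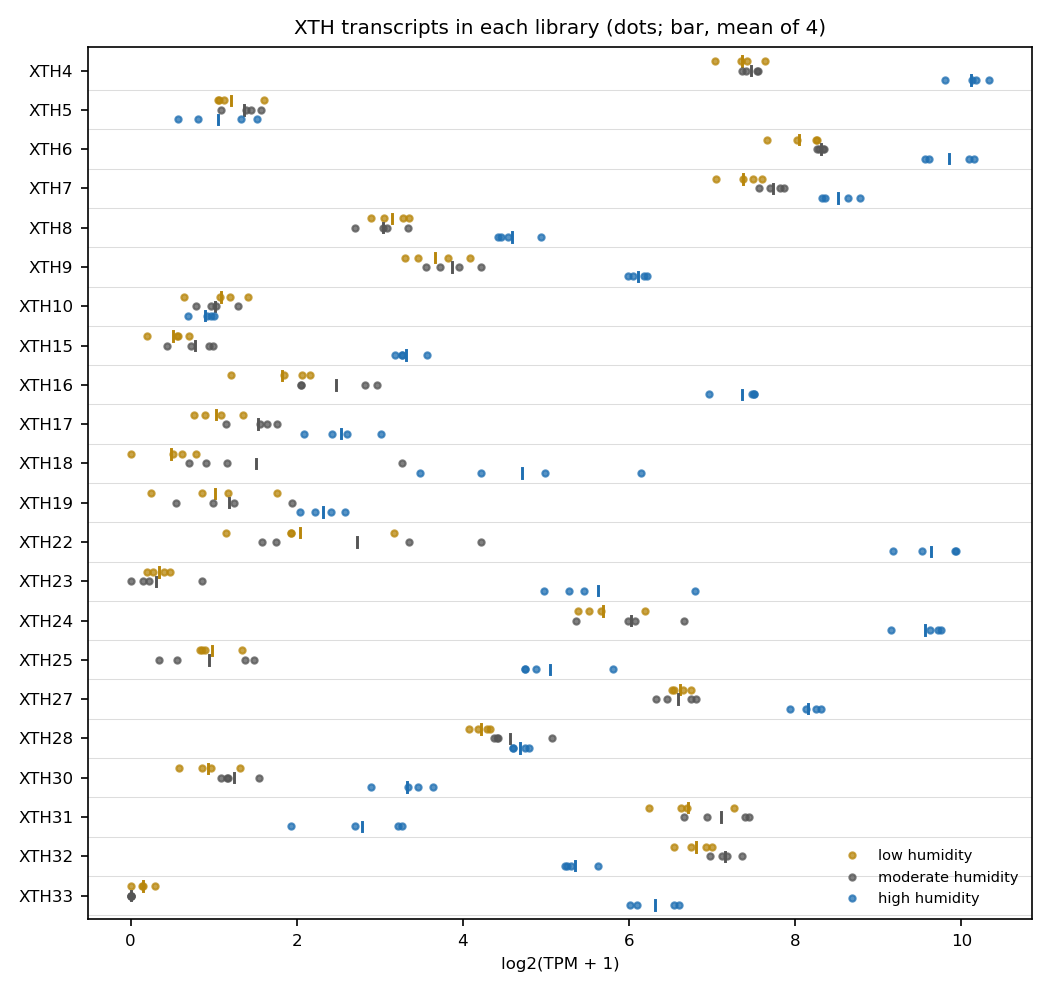
Level of each of the 22 tested XTH genes in each library, as log2(TPM + 1) on the horizontal axis. Dots are single libraries in low, moderate and high humidity and short bars are the means of 4. The high humidity dots lie to the right of the moderate ones for 17 genes and to the left for XTH31 and XTH32.

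XTH4, XTH6, XTH7 and XTH27, among the more abundant members at moderate humidity, rose at high humidity. XTH4 (AT2G06850), a member expressed in growing stems and leaves, was at 1290, 894, 1158 and 1118 TPM in the high humidity libraries, against 163, 185, 187 and 169 TPM in the moderate ones. Every high library was above every moderate one, and the log2 fold change was 2.64 (SE 0.13, limma adjusted p = 1.5e-08). XTH6 (AT5G65730) had 752, 1132, 1089 and 780 TPM at high humidity, against 310, 322, 307 and 326 TPM at moderate humidity. Its high libraries fell into a lower and a higher pair while its moderate ones lay close together, and it rose by 1.54 (SE 0.15, limma adjusted p = 7.7e-06). XTH7 (AT4G37800), the nearest relative of XTH6 in coding sequence, was at 318, 437, 397 and 327 TPM at high humidity, against 206, 225, 233 and 188 TPM at moderate humidity. It rose by 0.78 (SE 0.13, limma adjusted p = 5.3e-04), the smallest rise among the members that passed the test. XTH27 (AT2G01850), listed under its older name EXGT-A3 and known for a role in leaf vein cells, stood at 279, 318, 304 and 244 TPM at high humidity, against 79.1, 111, 87.1 and 106 TPM at moderate humidity. Its libraries did not overlap and it rose by 1.57 (SE 0.12).

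XTH22 and XTH24 moved from the middle of the family to near its top. XTH22 (AT5G57560), the touch gene TCH4, was at 967, 578, 976 and 737 TPM in the high humidity libraries, against 9.18, 17.6, 2.37 and 1.99 TPM in the moderate ones. The moderate libraries differed several-fold among themselves, and every high library was far above them (SE 0.60 around a log2 fold change of 6.92, limma adjusted p = 1.5e-05). XTH24 (AT4G30270), first described as the meristem transcript MERI5, was at 788, 867, 841 and 567 TPM at high humidity, against 100, 40.1, 66.3 and 62.2 TPM at moderate humidity. It rose by 3.54 (SE 0.26, limma adjusted p = 1.3e-06). Ordered by mean TPM, XTH22 was the 3rd member at high humidity and the 10th at moderate humidity, and XTH24 was the 4th at high humidity and the 7th at moderate humidity. At high humidity XTH4 came 1st and XTH6 2nd, but their libraries overlapped (894 to 1290 TPM for XTH4 and 752 to 1132 TPM for XTH6).

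XTH33, XTH23 and XTH25 were below 2 TPM in every moderate humidity library, and XTH16 and XTH18 below 9 TPM. XTH33 (AT1G10550), which is predicted to carry a membrane anchor, was at 96.2, 63.5, 92.1 and 67.1 TPM at high humidity and listed at 0 in all 4 moderate libraries. No fold is given against a group listed at 0. XTH23 (AT4G25810), listed as XTR6, had 110, 30.6, 37.8 and 42.8 TPM at high humidity, against 0.82, 0.17, 0 and 0.11 TPM at moderate humidity. Its first high library was well above the other 3, and the groups did not overlap (log2 fold change 5.32, SE 0.32). XTH16 (AT3G23730) was at 181, 124, 181 and 177 TPM at high humidity, against 3.15, 6.08, 3.15 and 6.84 TPM at moderate humidity. It rose by 4.89 (SE 0.25, limma adjusted p = 5.6e-08). XTH25 (AT5G57550) was at 55.0, 28.3, 25.9 and 25.8 TPM at high humidity, against 1.79, 1.60, 0.47 and 0.27 TPM at moderate humidity. It rose by 4.10 (SE 0.29). XTH18 (AT4G30280), a gene known from roots, was at 69.6, 10.2, 17.5 and 30.7 TPM at high humidity, against 8.65, 0.63, 0.87 and 1.24 TPM at moderate humidity. The first moderate library came close to the lowest high one without reaching it, and the rise of 3.20 had the widest error of the family (SE 0.64).

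Lower members rose too. XTH9 (AT4G03210) was at 62.2, 65.1, 73.5 and 71.7 TPM at high humidity, against 12.2, 14.5, 10.7 and 17.7 TPM at moderate humidity. XTH8 (AT1G11545) was at 29.6, 20.5, 20.9 and 22.2 TPM at high humidity, against 7.48, 9.08, 5.50 and 7.24 TPM at moderate humidity. Neither gene overlapped between the groups, and XTH9 rose by 2.24 (SE 0.17) and XTH8 by 1.55 (SE 0.16). XTH15 (AT4G14130), a shade-induced member, had 10.8, 8.66, 8.06 and 8.59 TPM at high humidity, against 0.65, 0.99, 0.35 and 0.92 TPM at moderate humidity, and rose by 2.55 (SE 0.16). Its gene model overlaps 382 bases of a gene on the opposite strand, AT4G14120, which stayed between 0.1 and 0.76 TPM in all libraries. XTH30 (AT1G32170) stood at 11.5, 10, 9.13 and 6.40 TPM at high humidity, against 1.12, 1.93, 1.24 and 1.25 TPM at moderate humidity, and rose by 2.09 (SE 0.19). XTH17 (AT1G65310) was at 7.07, 3.26, 4.37 and 5.06 TPM at high humidity, against 1.22, 2.11, 2.39 and 1.95 TPM at moderate humidity (rise 1.00, SE 0.20, limma adjusted p = 0.0018). XTH19 (AT4G30290) was at 4.96, 3.11, 3.65 and 4.34 TPM at high humidity, against 2.84, 0.99, 1.37 and 0.46 TPM at moderate humidity (rise 1.13, SE 0.32, limma adjusted p = 0.013). XTH17, XTH18 and XTH19 are all known mainly from roots.

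XTH31 and XTH32, the members of the hydrolase branch, fell at high humidity. XTH31 (AT3G44990) was at 2.82, 8.34, 8.66 and 5.49 TPM in the high humidity libraries, against 100, 121, 167 and 173 TPM in the moderate ones. Every high library was under 9 TPM and every moderate one at least 100 TPM, with a log2 fold change of -4.33 (SE 0.31, limma adjusted p = 1.8e-06). XTH32 (AT2G36870) was at 36.5, 37.2, 38.3 and 48.2 TPM at high humidity, against 125, 144, 163 and 138 TPM at moderate humidity. It fell by 1.81 on the log2 scale (SE 0.12, limma adjusted p = 2.5e-07). Both genes were called lower after median-of-ratios scaling as well.

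XTH5, XTH10 and XTH28 did not pass the test. XTH28 (AT1G14720), known for a role in stamen filament growth, was at 23.3, 25.9, 26.9 and 23.3 TPM at high humidity, against 20.4, 19.8, 20.3 and 32.5 TPM at moderate humidity. Its groups overlap through the fourth moderate library (log2 fold change 0.12, 95% interval -0.18 to 0.42, limma adjusted p = 0.50), and without that library its log2 fold change was 0.29 with an adjusted p of 0.031. XTH5 (AT5G13870) averaged 1.15 ± 0.645 TPM at high humidity and 1.61 ± 0.354 TPM at moderate humidity (SD, n = 4 each), a log2 fold change of -0.32 (95% interval -0.78 to 0.15, limma adjusted p = 0.24). XTH10 (AT2G14620) averaged 0.865 ± 0.169 TPM at high humidity and 1.04 ± 0.304 TPM at moderate humidity (SD, n = 4 each), a log2 fold change of -0.12 (95% interval -0.50 to 0.25, limma adjusted p = 0.58). Overlap between the groups was plain for both.

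**Figure D2:**
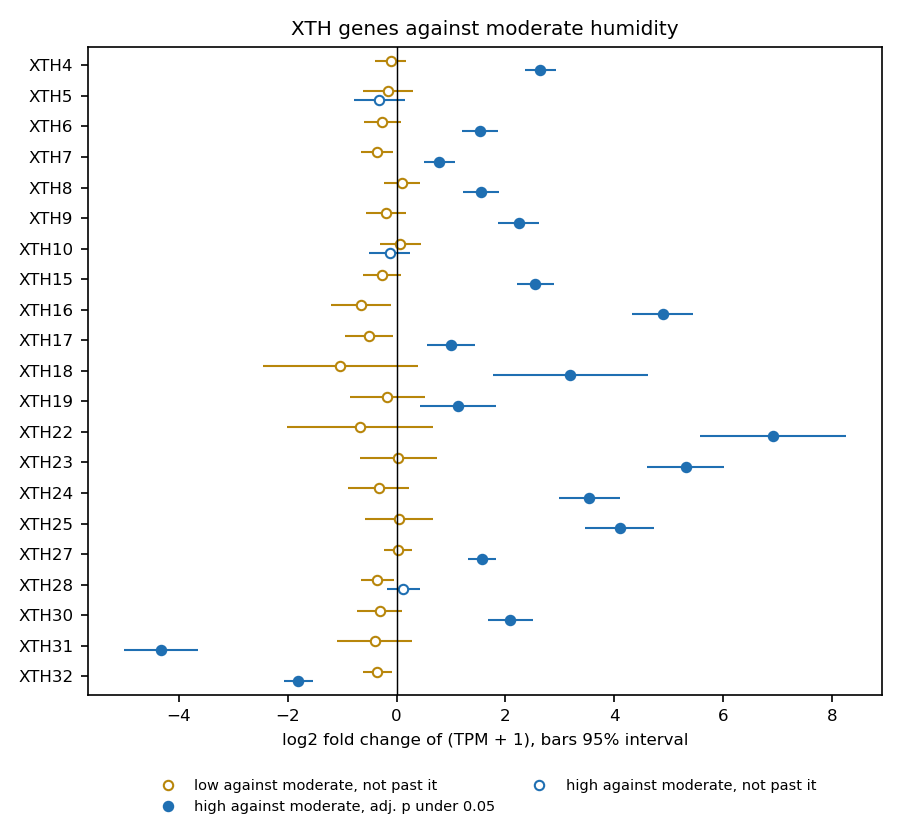
Log2 fold change of (TPM + 1) of the tested XTH genes at low and at high humidity, each against moderate humidity, without XTH33, which was listed at 0 at moderate humidity. Bars are 95% intervals and filled points have a limma adjusted p under 0.05. At high humidity every filled point lies to the right of 0 except XTH31 and XTH32, and no low humidity point is filled.

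The family's transcript pool was larger at high than at moderate humidity, and its make-up was different there. The 33 members summed to 5097, 4667, 5316 and 4314 TPM in the high humidity libraries, against 1157, 1228, 1263 and 1237 TPM in the moderate ones. The means were 4848 ± 446 TPM at high and 1221 ± 45.2 TPM at moderate humidity (SD, n = 4 each), which is 0.485% of all transcripts at high and 0.122% at moderate humidity, with a ratio of means of 3.97 (4.69 after median-of-ratios scaling). XTH22 and XTH24 together made up 32.5% ± 2.17 of the pool at high humidity and 6.20% ± 2.20 at moderate humidity (SD, n = 4 each). XTH31 and XTH32 together made up 0.969% ± 0.202 at high and 23.1% ± 3.10 at moderate humidity. The share of XTH4, XTH6 and XTH7 was 50.1% ± 2.82 at high and 57.8% ± 1.93 at moderate humidity, so the most abundant members at moderate humidity still gave about as much as all others at high humidity. At low humidity the shares were 5.42% ± 1.18 for XTH22 and XTH24, 21.4% ± 2.67 for XTH31 and XTH32 and 58.7% ± 2.20 for XTH4, XTH6 and XTH7 (SD, n = 4), each within 1 SD of its value at moderate humidity. A sum over members is a description and was not tested.

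**Figure D3:**
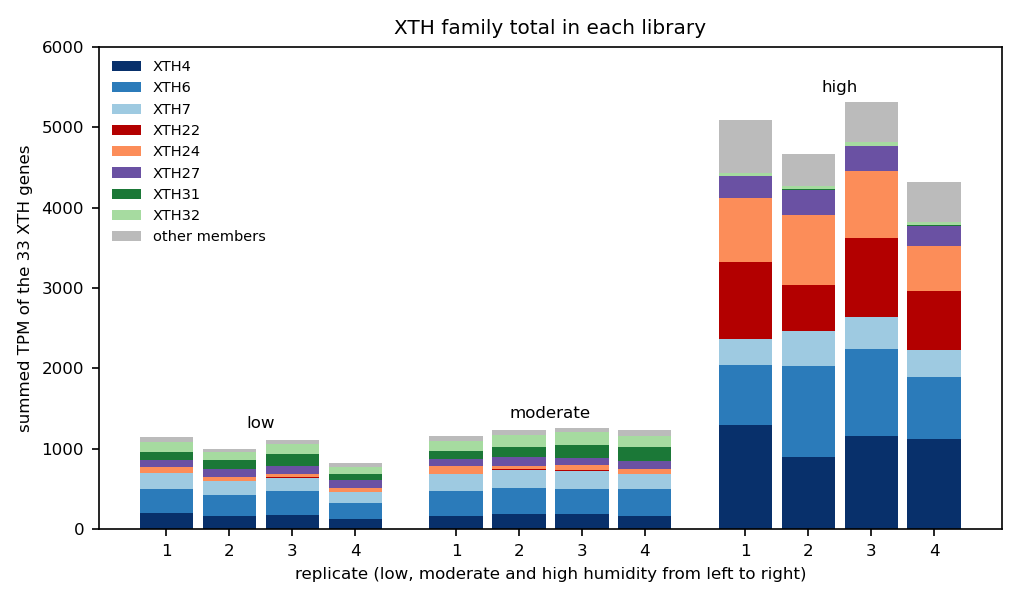
Summed TPM of the 33 XTH genes in each of the 12 libraries, stacked by the 8 named members and all others. The low humidity bars reach 824 to 1140 TPM, the moderate ones 1157 to 1263 TPM and the high ones 4314 to 5316 TPM, where XTH4, XTH6, XTH22 and XTH24 take most of the height.

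The XTH numbers run along the branches of the protein family. Of XTH1 to XTH11, 5 of 11 rose, 2 did not pass the test and 4 were not tested. Of XTH12 to XTH26, 9 of 15 rose and the other 6 were not tested, and 4 of those 9 (XTH15, XTH18, XTH23 and XTH25) passed the filter only through the high humidity libraries. Of XTH27 to XTH33, 3 of 7 rose, of which XTH33 passed the filter in that way, 2 fell, 1 did not pass the test and 1 was not tested. These counts stand beside 11.4% of all tested genes that rose and 34.2% that fell, and whether the branches differ was not tested. XTH12 to XTH26 gave 38.7% ± 3.31 of the family's transcripts at high humidity and 7.28% ± 2.57 at moderate humidity (SD, n = 4 each).

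The catalytic site shows how close the members are in the part of the gene that makes them enzymes, and it is printed for members that rose and for the pair that fell. An in-frame search of the longest coding sequence of each gene (RefSeq, build TAIR10.1) found codons for aspartate, glutamate, any residue, aspartate, any residue and glutamate in 31 of 33 members. XTH9 and XTH11 have no such run. The 24 coding bases from the first of these codons are given, 5′ to 3′, with the paired glutamate codons in capitals.
XTH4: gacGAGatagactttGAGttcctt
XTH22: gacGAGatagatttcGAGttttta
XTH23: gacGAGattgactttGAGttcttg
XTH27: gatGAGatagattttGAGtttctt
XTH30: gacGAGttagacataGAGtttcta
XTH33: gacGAGatagacataGAAttgttg
XTH31: gatGAGgtcgatatcGAGtttcta
XTH32: gatGAGgtagacataGAAtttttg
Between the glutamate codons, the codon just before the second one is ttt or ttc in 26 of the 31 members and ata or atc in 5, which are XTH29 to XTH33. These 5 include XTH30 and XTH33, which rose, XTH31 and XTH32, which fell, and XTH29, which was not tested.

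Relatives close in sequence did not always move together. XTH27 and XTH28 match in 78.1% of aligned coding bases, and XTH27 rose while XTH28 did not pass the test at high against moderate humidity. XTH4 and XTH5 match in 73.0%, and XTH4 rose at a level of 1115 ± 164 TPM while XTH5 did not exceed 2.05 TPM in any library. XTH15 and XTH16 (81.7%) both rose, as did XTH22 and XTH23 (82.4%) and XTH17 and XTH18 (92.2%). XTH31 and XTH32, which fell together, match in 68.6%. The difference in response within these pairs was not tested. The annotated transcripts of most members are distinct over every stretch of 50 bases, and the reads were 150 bases long. XTH15, XTH17, XTH18 and XTH19 were the members with any stretch of 50 bases also present in a transcript of another gene, which held for 28.8% of such stretches in XTH15, 0.171% in XTH17, 1.57% in XTH18 and 1.63% in XTH19. XTH16, the nearest relative of XTH15 in coding sequence, had 0% of such stretches, so those of XTH15 are not shared with XTH16. The gene model of XTH15 overlaps AT4G14120 by 382 bases on the opposite strand, and AT4G14120 did not exceed 0.76 TPM. How strands and shared reads were handled is not stated in the sources used here. The values of XTH15 are therefore less certain. In XTH17, XTH18 and XTH19 the shared part is small, and its effect on reads of 150 bases was not tested.

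Some members sit side by side in the genome, and neighbours differed in level. With at most 1 other gene between them, 11 members form 4 runs on chromosomes 4 and 5. On chromosome 5, XTH12, XTH13, XTH25 and XTH22 follow each other on the same strand, with 686 bases between XTH13 and XTH25 and 565 bases between XTH25 and XTH22. XTH22 averaged 815 ± 193 TPM at high and 7.78 ± 7.33 TPM at moderate humidity, and XTH25 averaged 33.7 ± 14.2 TPM at high and 1.03 ± 0.773 TPM at moderate humidity (SD, n = 4 each). XTH13, next to XTH25, was listed at 0 throughout, and XTH12 had 0.06 TPM in 1 high library and 0 elsewhere. On chromosome 4, XTH23 reached 30.6 to 110 TPM at high humidity while XTH14, whose start lies 363 bases beyond the end of XTH23, was listed at 0 in every library. XTH24, XTH18 and XTH19, another run on chromosome 4, all rose. XTH1 and XTH2, the fourth run, were both listed at 0.

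**Figure D4:**
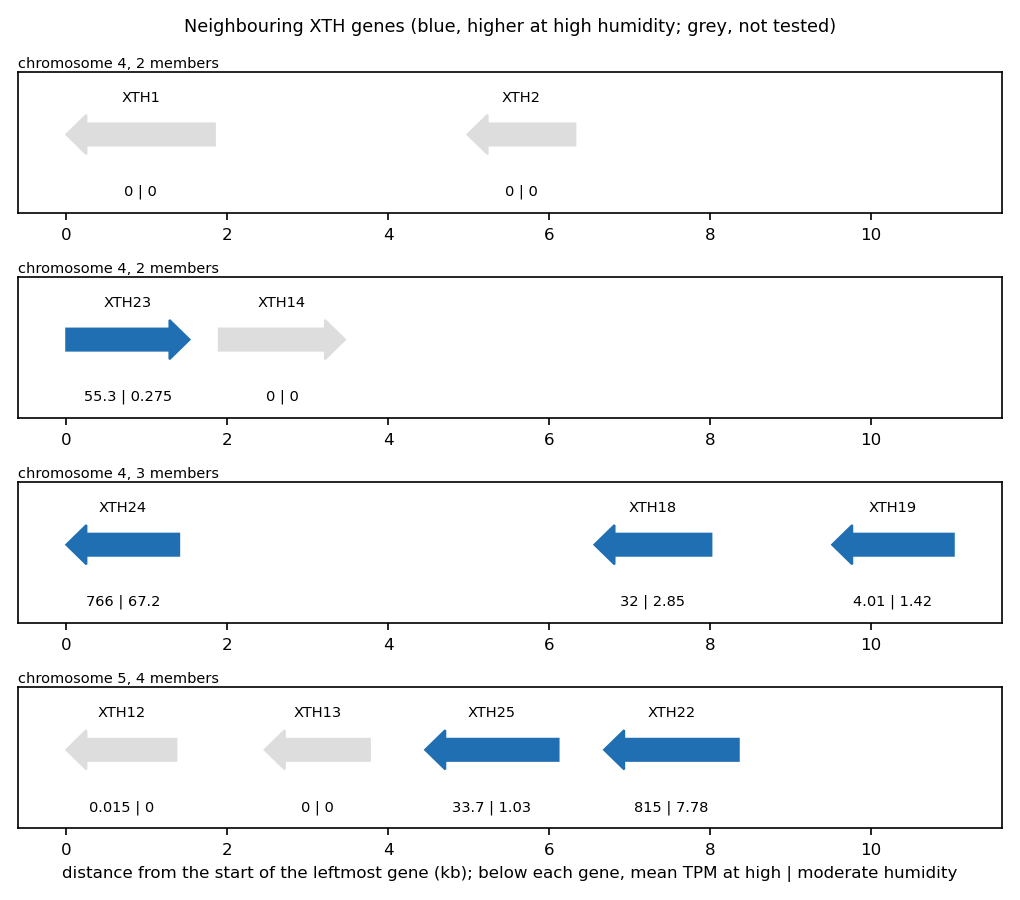
Runs of neighbouring XTH genes drawn to scale, with the distance in kb from the start of the leftmost gene and arrows for the direction of transcription. Numbers under each gene are mean TPM at high and at moderate humidity. Blue genes rose at high humidity, with 815 against 7.78 TPM for XTH22, and grey genes, such as XTH13 beside XTH25, were not tested.

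The 250 bases before the annotated start of 4 genes are printed to show what lies in front of neighbours that differ (XTH13, XTH25 and XTH22) and in front of the member with the largest fall (XTH31). The sequences are from RefSeq, build TAIR10.1, 5′ to 3′ on the strand of the gene. Capitals mark any match, on either strand, to the following short motifs. CACGTG is the G-box. ACGTG, which also lies within the G-box, is the core of the element bound by abscisic acid response factors. CGCGT is the core bound by CAMTA factors. CGTGCG is an element of the brassinosteroid factor BZR1, and the letters CGTGTG were counted with it. TGTCTC is the auxin response element. TATAAA is the TATA box.
XTH13 (chr5:23304096-23304345, minus strand): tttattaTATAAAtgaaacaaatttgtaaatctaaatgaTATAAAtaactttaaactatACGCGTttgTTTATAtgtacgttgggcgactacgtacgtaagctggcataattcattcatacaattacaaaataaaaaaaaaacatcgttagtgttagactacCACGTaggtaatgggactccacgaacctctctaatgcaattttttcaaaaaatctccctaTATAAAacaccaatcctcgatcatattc
XTH25 (chr5:23306441-23306690, minus strand): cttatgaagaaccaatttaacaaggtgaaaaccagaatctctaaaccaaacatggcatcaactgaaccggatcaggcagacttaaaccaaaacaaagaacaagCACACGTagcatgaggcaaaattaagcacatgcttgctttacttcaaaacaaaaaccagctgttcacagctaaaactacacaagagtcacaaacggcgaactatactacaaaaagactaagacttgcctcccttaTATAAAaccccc
XTH22 (chr5:23308681-23308930, minus strand): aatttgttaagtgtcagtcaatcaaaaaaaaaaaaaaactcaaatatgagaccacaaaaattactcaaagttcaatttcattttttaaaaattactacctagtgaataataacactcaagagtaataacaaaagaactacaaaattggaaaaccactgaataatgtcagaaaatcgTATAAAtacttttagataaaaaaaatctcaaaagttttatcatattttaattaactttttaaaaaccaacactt
XTH31 (chr3:16448845-16449094, minus strand): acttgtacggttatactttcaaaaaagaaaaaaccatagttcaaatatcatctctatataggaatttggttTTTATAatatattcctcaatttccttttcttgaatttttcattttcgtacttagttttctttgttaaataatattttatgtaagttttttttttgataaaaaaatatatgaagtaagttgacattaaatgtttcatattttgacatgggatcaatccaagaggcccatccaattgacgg
XTH22 holds TATAAA and no other listed motif in this window, XTH25 holds TATAAA and an ACGTG core that overlaps a BZR1 element, and XTH31 holds TATAAA alone, read from the other strand. XTH13, which was listed at 0, holds an ACGTG core, CGCGT on both strands and several TATAAA matches. Over all 33 members, the G-box was in 0 promoters, against 6.49% of the 27443 promoters of nuclear protein-coding genes. The ACGTG core was in 5 of 33 (15.2%, against 22.9%), CGCGT in 3 (9.09%, against 6.87%), a BZR1 element in 4 (12.1%, against 6.71%), TGTCTC in 2 (6.06%, against 10.9%) and TATAAA in 18 (54.5%, against 47.3%). Of the 17 members that rose, 2 held the ACGTG core, 1 CGCGT, 3 a BZR1 element, 1 TGTCTC and 8 TATAAA. A match is a description of letters, and these counts were not tested.

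Low against moderate humidity asks what an hour in drier air did. No XTH gene passed the test with limma (0 of 22 tested members, and 0 of 22 without the intensity trend), while 5 had an unadjusted p under 0.05. By adjusted p, 0.443% of all tested genes rose and 0.23% fell in this comparison, 0.674% in either direction. The share of all tested genes with an unadjusted p under 0.05 is not given. The 5 members therefore have no background to be set against and are a description. Those with an unadjusted p under 0.05 were XTH7, XTH16, XTH17, XTH28 and XTH32, with log2 fold changes of -0.36, -0.65, -0.50, -0.35 and -0.36 and limma adjusted p of 0.112, 0.127, 0.133, 0.128 and 0.102. XTH6 and XTH28 had every low library below every moderate one and no member had every low library above, against 8.76% and 1.73% of all tested genes. Leaving out XTH33, log2 fold changes ran between -1.03 (XTH18, limma adjusted p = 0.29) and 0.10 (XTH8, adjusted p = 0.66), and 16 were negative. The median of the 22 tested members was -0.26, against -0.18 over all tested genes. XTH31 had 97.4, 103, 153 and 74.7 TPM at low humidity, against 100, 121, 167 and 173 TPM at moderate humidity, and the groups overlapped. XTH22 had 7.98, 2.81, 1.22 and 2.81 TPM at low humidity, overlapping the moderate libraries (1.99 to 17.6 TPM). XTH33 was at 0.23, 0.1, 0.11 and 0 TPM at low humidity and listed at 0 at moderate humidity. The family total was 1140, 1002, 1110 and 824 TPM in the low libraries, all below the 1157 to 1263 TPM of the moderate ones, with a ratio of means of 0.835, or 0.953 after median-of-ratios scaling. Without low humidity replicate 1, 3 members were called lower, XTH7 (-0.43, limma adjusted p = 0.035), XTH17 (-0.61, adjusted p = 0.045) and XTH32 (-0.40, adjusted p = 0.040). The median of all tested genes was also lower in that run, at -0.24 against -0.18 with all libraries. The share of all tested genes called in that run is not given.

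High against low humidity sets the outer conditions against each other and tests whether the effects of high and low humidity, each against moderate, differ. This comparison shares its high libraries with high against moderate humidity. At high humidity 18 XTH genes were higher than at low humidity and 2 lower, against 12.4% and 11.3% of all tested genes, 23.7% in either direction. The libraries of these 18 and 2 members did not overlap between the conditions, as held for 12.6% and 13.7% of all tested genes. Among the 18, XTH15, XTH18, XTH23, XTH25 and XTH33 passed the filter only through the high humidity libraries, so the filter favoured their rise. The counts over the tested members are therefore a description. XTH22 was at 578 to 976 TPM at high humidity and 1.22 to 7.98 TPM at low humidity, a log2 fold change of 7.60 (limma adjusted p = 6.9e-06, SE 0.60). XTH16 stood at 124 to 181 TPM at high humidity and 1.31 to 3.46 TPM at low humidity (5.54, SE 0.25), XTH18 at 10.2 to 69.6 TPM at high humidity and 0 to 0.72 TPM at low humidity (4.23, SE 0.64), and XTH7 at 318 to 437 TPM at high humidity and 131 to 192 TPM at low humidity (1.14, SE 0.13). XTH31 was lower by a log2 fold change of -3.93 (SE 0.31) and XTH32 by one of -1.45 (SE 0.12). XTH28 averaged 24.8 ± 1.82 TPM at high humidity and 17.6 ± 1.46 TPM at low humidity (SD, n = 4 each), a log2 fold change of 0.47 (limma adjusted p = 0.025, SE 0.14). Its call was lost without low humidity replicate 2 or 4 or without high humidity replicate 2 or 3, with adjusted p of 0.074, 0.055, 0.060 and 0.073. XTH5 and XTH10 did not pass the test.

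Genes that make and trim xyloglucan give the setting in which the XTH enzymes act. Of 16 genes for xyloglucan synthesis, 14 were tested, 7 rose and 1 fell at high against moderate humidity, where 11.4% of all tested genes rose and 34.2% fell. CSLC12, one of the 7, passed the filter only through the high humidity libraries, so the filter favoured its rise. After median-of-ratios scaling 9 of the 14 rose and 1 fell, while 3211 of all 17368 tested genes rose and 2600 fell. XXT1 (AT3G62720), a xylosyltransferase that adds the side chains, was at 86.9, 65.9, 84.4 and 66.5 TPM at high humidity, against 4.05, 4.07, 2.94 and 3.28 TPM at moderate humidity (SE 0.16 around a log2 fold change of 4.07, limma adjusted p = 1.7e-09). Its close relative XXT2 (AT4G02500), which acts on the same backbone, had a log2 fold change of -0.09 (limma adjusted p = 0.51). CSLC4 (AT3G28180), a glucan synthase that makes the backbone, averaged 174 ± 21.7 TPM at high and 46.8 ± 7.97 TPM at moderate humidity, and XXT5 (AT1G74380), a further xylosyltransferase, 112 ± 21.5 TPM at high and 35.4 ± 3.65 TPM at moderate humidity (SD, n = 4 each). They rose by 1.88 (SE 0.16) and 1.61 (SE 0.13). CSLC5 (AT4G31590), another backbone synthase gene, fell by 0.88 on the log2 scale (SE 0.12).

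Of 5 genes for enzymes that trim xyloglucan in the wall, 1 rose and 2 fell, against 11.4% and 34.2% of all tested genes. The fucosidase gene AXY8 (AT4G34260) averaged 138 ± 17.1 TPM at high and 38.2 ± 7.86 TPM at moderate humidity (SD, n = 4 each) and rose by 1.83 (SE 0.14). XYL1 (AT1G68560), a xylosidase gene, averaged 17.6 ± 3.17 TPM at high and 40.9 ± 6.50 TPM at moderate humidity (SD, n = 4 each) and fell by 1.18 on the log2 scale (SE 0.16). The glucosidase gene BGLC3 (AT5G04885) fell by 0.46 (SE 0.10, limma adjusted p = 0.0027). Its adjusted p became 0.057 with median-of-ratios scaling, under which 2 of the 5 genes rose and 1 fell. Under that scaling 3211 of all 17368 tested genes rose and 2600 fell. The median log2 fold change of the trimming list was -0.25, against -0.22 for all tested genes. At low against moderate humidity limma called 0 genes of either list. There 3 synthesis genes (AXY4, CSLC5 and CSLC6) and 1 trimming gene (XYL1) had an unadjusted p under 0.05, all with negative log2 fold changes. The share of all tested genes with such a p is not given, so these counts are a description.

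**Figure D5:**
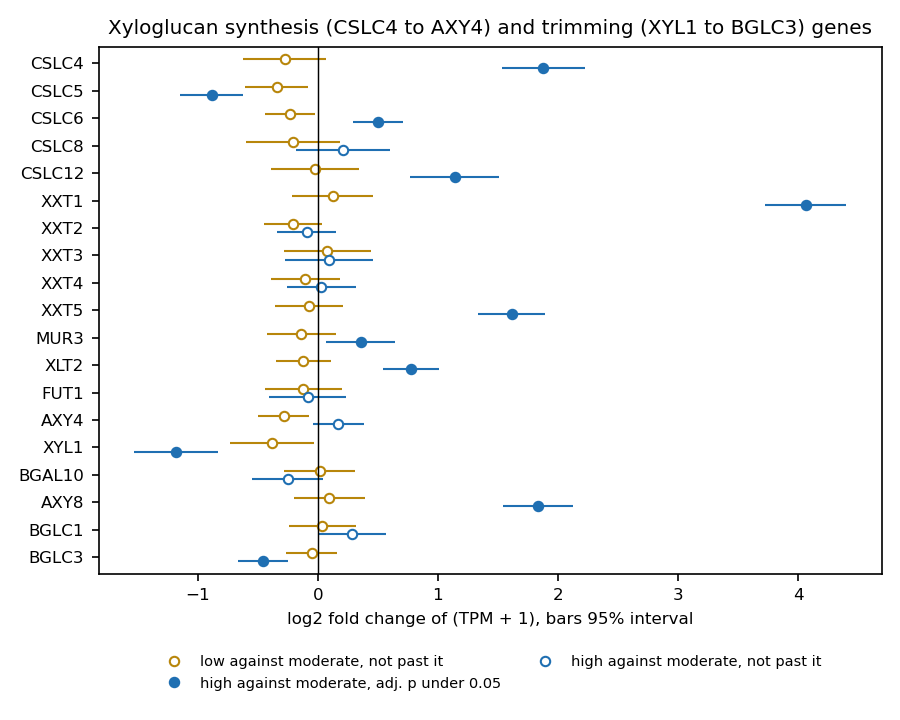
Log2 fold change of (TPM + 1) of the tested genes for xyloglucan synthesis and trimming at low and at high humidity, each against moderate humidity, with 95% intervals. Filled points have a limma adjusted p under 0.05. XXT1 stands apart at 4.07, and XYL1 lies lowest at -1.18.

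The other 3 TCH genes, which encode calmodulin or calmodulin-like calcium sensors, rose with XTH22 at high against moderate humidity. Of all tested genes, 11.4% rose in this comparison. CML24 (AT5G37770, TCH2) averaged 231 ± 30.3 TPM at high and 50.2 ± 7.28 TPM at moderate humidity (log2 fold change 2.19, SE 0.14). CML12 (AT2G41100, TCH3) averaged 583 ± 215 TPM at high and 188 ± 93.6 TPM at moderate humidity (1.68, SE 0.40), and CAM2 (AT2G41110, TCH1) 202 ± 44.2 TPM at high and 91.6 ± 21.6 TPM at moderate humidity (1.13, SE 0.20; SD, n = 4 each). All 3 also rose after median-of-ratios scaling, as did 3211 of the 17368 tested genes. The fold changes of these 3 genes were smaller than that of XTH22, a difference that was not tested.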

How the data were processed

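Leaf RNA was made into TruSeq libraries, per the labels' protocols. The deposited values are TPM per gene. The table's title speaks of raw counts, but its columns sum to between 998920 and 999399 and hold fractions. The submitters' processing notes name fastp, HISAT2, RSEM and TAIR10, with versions not given in the sources used here. TPM keeps no sequencing depth, so no counting interval is given. The authors deposited 3 further columns with means of groups, which play no role here.

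For the tests, log2(TPM + 1) values entered limma 3.58.1 (R 4.3.3) with 1 mean per condition over all 12 libraries (9 residual degrees of freedom), an intensity trend and robust moderation, two-sided. Genes with at least 1 TPM in at least 4 libraries were tested. The procedure was tested on simulated data. Alternatives were median-of-ratios scaling, pseudocounts of 0.1 and 5, no filter, a mean TPM of at least 5, plain moderation, the compared conditions alone, a replicate block and leaving out each library. The members, lists and tests were chosen with earlier results of these data known. All members are named, with library values for those past the threshold with a log2 fold change of at least 1 and for the 5 of highest mean. Up to 3 called genes per direction are named for each xyloglucan list, and XXT2 was named after its values were seen. XTH7 and XTH28 are given by library as well.

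Sequences and positions are from RefSeq TAIR10.1, joined by locus code. The table holds no coordinates. Coding sequences were aligned with Biopython 1.88. No protein table was used.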

Additional observations from a re-analysis of the deposited data

Results flagged for a closer look

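In 62 sets of 4 libraries (1 XTH gene or the family total in 1 condition), 9 had a library far from the other 3 by Dixon's test, and chance flags about 1 in 20. At high humidity, replicate 1 was above the others for XTH23 (110 TPM, others 30.6 to 42.8) and XTH25 (55.0 TPM, others 25.8 to 28.3). Replicate 2 was below the others for XTH16 (124 TPM, others 177 to 181), and replicate 4 above them for XTH32 (48.2 TPM, others 36.5 to 38.3). At low humidity, XTH5 was at 2.05 TPM in replicate 1 (others 1.08 to 1.18) and XTH25 at 1.54 TPM in replicate 4 (others 0.78 to 0.86). At moderate humidity, replicate 1 stood out for XTH18 (8.65 TPM, others 0.63 to 1.24), replicate 4 for XTH28 (32.5 TPM, others 19.8 to 20.4) and replicate 2 for XTH30 (1.93 TPM, others 1.12 to 1.25). The calls of XTH16, XTH18, XTH23, XTH25, XTH30 and XTH32 at high against moderate humidity held in every alternative run that tested them. Of these, XTH18, XTH23 and XTH25 passed the filter only through the high humidity libraries, so the filter favoured their rise.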

How the results depend on the processing

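At high against moderate humidity each of the 19 called XTH genes kept its direction and its call in every alternative that tested it. XTH15, XTH18, XTH23, XTH25 and XTH33 are among them, and the filter favoured their rise, as they passed it only through the high humidity libraries. With a mean TPM of at least 5, where fewer members are tested, 13 were higher and 2 lower. Without 1 library the counts lay between 17 and 18 higher, with 2 lower. At high against low humidity they lay between 17 and 18 higher, with 2 lower. The ratio of the family total at high against moderate humidity was 4.69 after median-of-ratios scaling. At low against moderate humidity the count of lower members lay between 0 and 3 without 1 library. The labels do not say whether the replicate numbers pair the libraries, and the correlations of deviations were mixed. They lay between -0.32 and 0.24, and 4 of 12 same-numbered pairs were over 0.1. In 3 of the 12 the same number gave the highest correlation. The replicate block left 17 higher and 2 lower at high against moderate, 0 and 0 at low against moderate and 18 and 2 at high against low humidity.

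Sign changes were limited to genes without a call, and the cause was not tested. At low against moderate humidity XTH4 became 0.083 after median-of-ratios scaling and XTH25 -7.4e-04 with a pseudocount of 5. Without 1 library at a time, the log2 fold change at low against moderate humidity lay between -0.0094 and 0.20 for XTH8, -0.057 and 0.10 for XTH27, -0.045 and 0.21 for XTH10, -0.076 and 0.21 for XTH23, -0.42 and 0.086 for XTH19, and -0.15 and 0.22 for XTH25. At high against low humidity that of XTH5 lay between -0.31 and 0.0056. Depth is unknown, so what it limits cannot be stated, and members under the filter on low TPM were not tested.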
